A study of Homo sapiens with 24 samples.

Results

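HAR123 is a human accelerated region, a short element conserved among mammals that gathered many substitutions on the human lineage, and it lies in an intron of SMG6 on the short arm of chromosome 17. The comparison described here asks what the mouse version of this element does in human cells at the neuroectoderm stage, relative to the human version. It rests on 6 of the 24 RNA-seq libraries of the series, 3 labelled mHAR123 and 3 labelled hHAR123, and it was tested over 21220 genes. All libraries came from the H9 (WA09) human embryonic stem cell (ESC) line. In hHAR123 cells the element is the unaltered human one, and in mHAR123 cells it was exchanged for its mouse ortholog with CRISPR-Cas9 and a donor plasmid. Both groups were differentiated for 5 days with noggin at 500 ng/ml, an inhibitor of BMP signalling, and SB431542 at 10 µM, an inhibitor of TGF-β, activin and nodal signalling. For comparison, 3 neuroectoderm libraries each of cHAR123 (the chimpanzee ortholog) and HAR123-KO (both alleles deleted), and the mHAR123, hHAR123 and cHAR123 libraries of undifferentiated ESCs, were used. Some counts of HAR123-KO ESCs are also given. The study used 2 clones per genotype, but which clone gave each library is unknown, so the spread between 3 libraries may mix clones and technical replicates. Because the hHAR123 cells did not pass through the exchange, the effects of the mouse sequence and of editing and cloning cannot be told apart in the comparison with hHAR123. Each genotype also has its own clones, so genotype and clone cannot be told apart in any comparison made here.

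One feature of the labels precedes the results. The study's table of regulated genes lists 117 genes for cHAR123 neuroectoderm, and for 117 of them the mean normalised count equals that of the columns labelled mHAR123 within 0.1%. The 114 genes listed for mHAR123 likewise match the columns labelled cHAR123 in 114 cases. Each set matched the columns of its own label for only 2 genes. Groups were kept here as the deposited column labels give them, and "mHAR123" below means the libraries labelled mHAR123.

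Neuroectoderm is the embryonic layer that forms the neural plate. At its border with the surface ectoderm, BMP and WNT signals set aside the neural crest, a migratory population that yields peripheral neurons, glia, pigment cells and part of the facial skeleton. The transcription factors FOXD3, TFAP2A, TFAP2B, SNAI2, ETS1 and SOX10 act in sequence to specify it, while SOX1, SOX2, PAX6 and OTX2 mark the neural plate itself.

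Both groups carried the neuroectoderm programme. SOX2 was counted at 549, 549 and 528 CPM (counts relative to the library total) in the hHAR123 libraries and 525, 504 and 522 CPM in the mHAR123 libraries, and PAX6 at 453, 445 and 445 CPM and 409, 409 and 410.1 CPM. The summed level of 7 neuroectoderm markers was 3436 to 3467 CPM in hHAR123 and 3153 to 3201 CPM in mHAR123. The 5 stem cell markers together reached 133 to 141 CPM and 132 to 137 CPM in neuroectoderm, against 1950 to 1972 CPM in hHAR123 ESCs. Endoderm markers were at most 0.331 CPM in sum, and TBXT, the mesoderm factor, had 3 or fewer counts in each of the 6 libraries. The 6 neural crest markers summed to 121 to 125 CPM in hHAR123 and 233 to 245 CPM in mHAR123. In bulk RNA, more cells of a type and more RNA per cell cannot be told apart. Total counts were 21022748 to 25978892 per library.

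In mHAR123 neuroectoderm 219 genes (1.03%) differed from hHAR123, 128 of them up-regulated and 91 down-regulated, at an adjusted p under 0.01 (edgeR quasi-likelihood F test, Benjamini-Hochberg) and an absolute log2 fold change over 1. These were 0.603% and 0.429% of the genes tested. Of the 219 genes, 219 had groups whose libraries did not overlap, as had 37.5% of all genes tested. Most shifts were smaller than 2-fold: 2972 genes had an adjusted p under 0.01 at any fold, 1867 of them higher with mHAR123. The median log2 fold change was 1.35 for the up-regulated genes and -1.49 for the down-regulated ones, also with genes near 0 counts set at their bound. DESeq2 called 93 and 38 genes, and gave no adjusted p to 43 of the 91 down-regulated genes. At the fold threshold, SLIT2 (1.002) lay just inside and the netrin receptor gene DCC (0.99) just outside.

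**Figure D1:**
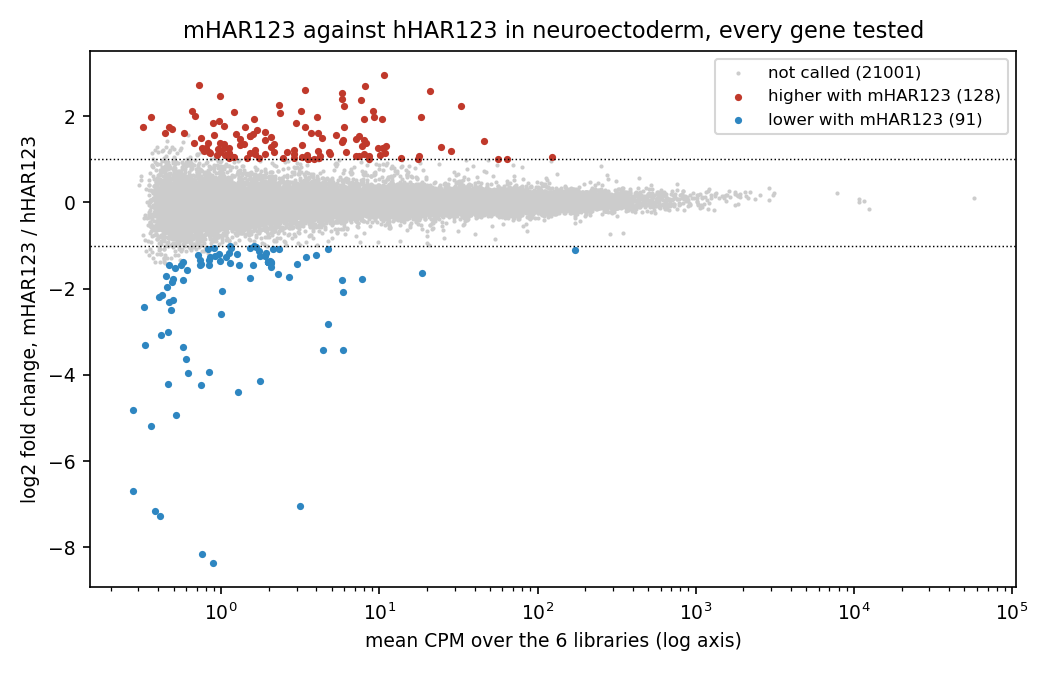
Each point is a gene, with its mean CPM over the 6 neuroectoderm libraries on a log axis and its log2 fold change of mHAR123 over hHAR123. The 128 up-regulated genes (red) reach a log2 fold change of 2.95, while several of the 91 down-regulated genes (blue) lie far lower, and dotted lines mark the fold threshold.

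Neural crest specifiers had the largest share of called genes among the 36 gene lists examined. Of 20 genes on this list, 18 passed the filter on low counts, and 10 of these were up-regulated and 0 down-regulated. Their median log2 fold change was 1.01, against -0.01 over all genes tested. A further 6 members had an adjusted p under 0.01 below the fold threshold, among them SOX9 at 0.24 (adjusted p = 1.2e-05) and ID3 at 0.74, and the last, SOX5 and SNAI1, were at -0.05 and 0.10 with adjusted p = 0.45 and 0.61. TWIST1 and MITF were too low to be tested, with at most 6 counts in any of the 6 libraries. The list was written with earlier results of these data known, so its count is a description.

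FOXD3, the winged-helix factor that keeps early neural crest multipotent, had the largest increase. The gene lies at chr1:63322567-63325128 (GRCh38). It was counted at 2.28, 2.69 and 2.52 CPM in hHAR123 and at 15.2, 21.7 and 19.9 CPM in mHAR123. The lowest mHAR123 library was thus well above the highest hHAR123 library (log2 fold change 2.95 ± 0.13, adjusted p = 9.6e-21). FOXD3-AS1, which overlaps FOXD3 on the opposite strand, was at 0.809, 0.827 and 0.811 CPM and 4.08, 3.77 and 3.68 CPM (2.27 ± 0.20, adjusted p = 1.4e-11). Reads of this pair may not have been separated, because how strand was handled in counting is unknown.

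TFAP2B, an AP-2 transcription factor, rose from 6.56, 5.83 and 6.15 CPM to 36.3, 35.2 and 35.7 CPM (2.58 ± 0.08, adjusted p = 3.0e-26). SOX10, the factor of migrating crest and of glia, rose from 11.7, 11.7 and 12.3 CPM to 54.5, 54.7 and 53.4 CPM (2.23 ± 0.06, adjusted p = 4.5e-27). In both genes the libraries of a group lay close together, far from those of the other group. SNAI2, a repressor of E-cadherin, was at 2.09, 2.48 and 1.88 CPM and 9.20, 11.01 and 9.30 CPM (2.23 ± 0.13, adjusted p = 1.8e-16). ETS1, which directs cranial crest delamination, was at 7.52, 8.02 and 7.13 CPM and 31.4, 27.0 and 28.5 CPM (1.98 ± 0.08, adjusted p = 1.0e-21). The other AP-2 genes changed less, TFAP2C by 1.46 and TFAP2A by 1.01 on the log2 scale. Cell-surface receptors of crest cells also rose: the neuregulin receptor ERBB3 by 1.29, the endothelin receptor EDNRB by 1.22 and the neurotrophin receptor NGFR by 1.01. NGFR was the most abundant of the list's called genes, at 43.3 ± 1.72 CPM in hHAR123 and 84.8 ± 3.19 CPM in mHAR123 (SD, n = 3). TFAP2A and NGFR sat close to the fold threshold and each fell under it when some single libraries were left out, and the list's count was 9 to 11 over the alternatives.

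The 250 bases before the RefSeq start (GRCh38.p14, 5′ to 3′) are printed for 3 up-regulated genes and 3 strongly down-regulated ones because they carry some of the largest changes, with every CpG dinucleotide in capitals. The windows are chr1:63322317-63322566, plus strand for FOXD3, chr6:50818621-50818870, plus strand for TFAP2B, chr1:18630596-18630845, plus strand for PAX7, chr6:26017788-26018037, minus strand for H1-1, chr5:150904981-150905230, minus strand for ZNF300 and chr19:43827071-43827320, plus strand for ZNF283.
FOXD3: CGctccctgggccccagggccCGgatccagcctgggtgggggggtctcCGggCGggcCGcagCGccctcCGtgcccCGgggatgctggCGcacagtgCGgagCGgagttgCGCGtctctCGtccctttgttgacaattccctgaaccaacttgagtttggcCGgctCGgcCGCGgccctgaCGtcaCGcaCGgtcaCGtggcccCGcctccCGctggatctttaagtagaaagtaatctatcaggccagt
TFAP2B: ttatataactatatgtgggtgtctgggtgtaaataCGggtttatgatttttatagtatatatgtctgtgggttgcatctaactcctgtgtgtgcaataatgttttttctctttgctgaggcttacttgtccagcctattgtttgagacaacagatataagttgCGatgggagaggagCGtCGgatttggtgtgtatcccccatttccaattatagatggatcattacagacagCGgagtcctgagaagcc
PAX7: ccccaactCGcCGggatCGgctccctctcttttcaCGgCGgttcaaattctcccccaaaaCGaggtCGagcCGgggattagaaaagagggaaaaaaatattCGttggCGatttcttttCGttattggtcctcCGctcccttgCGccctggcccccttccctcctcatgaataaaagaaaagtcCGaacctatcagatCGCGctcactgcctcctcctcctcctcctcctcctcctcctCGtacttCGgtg
H1-1: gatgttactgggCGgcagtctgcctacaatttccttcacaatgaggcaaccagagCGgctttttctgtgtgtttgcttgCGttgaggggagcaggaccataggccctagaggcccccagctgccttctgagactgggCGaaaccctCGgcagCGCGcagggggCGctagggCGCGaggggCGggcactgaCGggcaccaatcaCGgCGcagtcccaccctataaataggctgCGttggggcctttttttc
ZNF300: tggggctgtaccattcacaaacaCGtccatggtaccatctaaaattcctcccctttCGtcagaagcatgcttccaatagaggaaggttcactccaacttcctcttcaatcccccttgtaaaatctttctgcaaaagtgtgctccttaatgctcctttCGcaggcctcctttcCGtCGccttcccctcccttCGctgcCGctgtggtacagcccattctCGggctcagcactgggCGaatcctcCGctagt
ZNF283: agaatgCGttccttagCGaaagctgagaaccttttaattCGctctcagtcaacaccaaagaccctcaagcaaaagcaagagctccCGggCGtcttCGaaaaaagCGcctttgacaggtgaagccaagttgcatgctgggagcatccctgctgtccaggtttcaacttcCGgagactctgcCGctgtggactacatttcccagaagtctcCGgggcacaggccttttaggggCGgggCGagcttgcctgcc
They hold 24, 5, 18, 15, 10 and 12 CpG in this order. Promoter sequences were matched for 86 of the 128 up-regulated and 33 of the 91 down-regulated genes, with medians of 15 and 14 CpG per window, against 20 over the 12775 matched promoters of genes tested. The AP-2 palindrome GCCNNNGGC, which reads the same on both strands, was found in 19 of the 86, 6 of the 33 and 27.3% of the promoters of genes tested, and in 0 of the 4 windows matched to up-regulated neural crest specifiers.

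**Figure D2:**
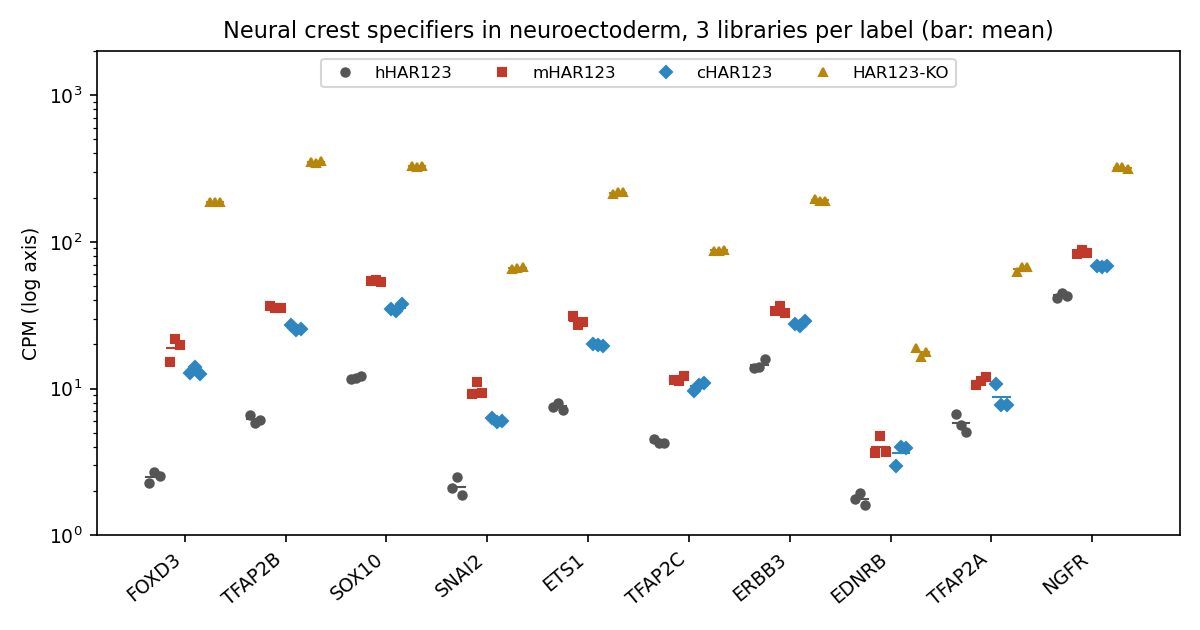
Levels of the 10 up-regulated neural crest specifiers in neuroectoderm, in CPM on a log axis, with 1 point per library and a bar at the mean of 3. For every gene the 3 mHAR123 libraries (red squares) lie above the 3 hHAR123 libraries (grey circles) and below the 3 HAR123-KO libraries (yellow triangles). The mean of cHAR123 (blue diamonds) lies between those of hHAR123 and mHAR123.

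Among neural plate border and dorsal neural tube genes, 23 of 24 were tested and 3 were up-regulated, with a median of 0.49. PAX7, a paired-box factor of the border and dorsal tube, rose from 1.86, 1.98 and 1.84 CPM to 10.1, 9.48 and 9.56 CPM (2.40 ± 0.13, adjusted p = 7.0e-18). The other 2 were the ligands BMP4 (1.63 ± 0.22, adjusted p = 5.9e-07) and BMP5 (1.57 ± 0.13, adjusted p = 7.7e-12). PAX3, a close relative of PAX7, was at 83.4 to 159 CPM in mean level, a log2 change of 0.97 (adjusted p = 9.2e-22), and the border factor MSX1 at 0.98 and the dorsal midline ligand WNT1 at 0.90, all below the fold threshold. In total 10 members were higher and 0 lower at an adjusted p under 0.01.

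Of 16 tested midbrain and hindbrain genes, PAX2 (1.27 ± 0.09, adjusted p = 1.1e-13) and LMX1B (1.48 ± 0.11, adjusted p = 4.0e-13) were up-regulated. LMX1B, a LIM-homeodomain factor, went from 3.85, 3.84 and 3.84 CPM to 9.32, 10.7 and 11.2 CPM. IRX1 (0.71) and IRX2 (0.55) had adjusted p under 0.01 below the fold threshold, and HOX genes of the list had at most 2 counts in any of the 6 libraries. Of 17 tested forebrain and eye field genes, 0 were called in either direction and the median was 0.02. Within this list RAX, the eye field factor, was at 9.09, 10.4 and 10.4 CPM in hHAR123 and 5.43, 5.67 and 6.66 CPM in mHAR123 (-0.72 ± 0.11, adjusted p = 2.4e-06), and NR2E1, a nuclear receptor of neural stem cells, at 25.3, 25.6 and 23.8 CPM and 15.3, 14.6 and 15.96 CPM (-0.66 ± 0.07, adjusted p = 1.2e-09). Their groups did not overlap, while OTX1 (0.32) and SHISA2 (0.28) were higher, and FEZF1, FEZF2 and EMX2 lay between -0.12 and 0.10.

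None of 18 pan-neural progenitor genes was called. SOX1 was at 82.4, 82.1 and 79.5 CPM and 60.8, 62.1 and 61.6 CPM (-0.36 ± 0.04, adjusted p = 2.3e-08), a small decrease with no overlap. Among 16 proneural and early neuronal genes the POU factor POU4F1, which marks dorsal midbrain and sensory neurons, was up-regulated, from 27.4, 25.3 and 23.4 CPM to 65.2, 69.6 and 64.4 CPM (1.43 ± 0.05, adjusted p = 2.2e-22). It was the only called member, and the list median was -0.01, with 6 of 16 above 0. At an adjusted p under 0.01, 2 members were higher and 1 lower. The neuron markers DCX, STMN2, ELAVL3 and TUBB3 summed to 82.1 to 85.7 CPM in hHAR123 and 66.1 to 71.1 CPM in mHAR123. The 13 tested pluripotency genes, 15 surface ectoderm and placode genes, 6 mesoderm, 3 endoderm and 3 vascular genes held no called member. The members with an adjusted p under 0.01 and the largest changes were ZFP42 (0.93 ± 0.11, adjusted p = 1.1e-08), KDR (0.87 ± 0.09, adjusted p = 1.2e-09), L1TD1 (0.85 ± 0.09, adjusted p = 1.9e-09), GRHL3 (0.82 ± 0.12, adjusted p = 1.4e-06) and VWF (0.59 ± 0.08, adjusted p = 5.5e-07), whereas POU5F1 was at -0.07 ± 0.08, adjusted p = 0.61. Of 4 NPC-3 markers, CDH18 was up-regulated (1.003 ± 0.14, adjusted p = 9.6e-07), a call that was lost without hHAR123 replicate 1 and without mHAR123 replicate 2 or 3. The NPC-2 markers FZD5 and SIX3 were at -0.02 and -0.43, with adjusted p = 0.85 and 0.017.

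**Figure D3:**
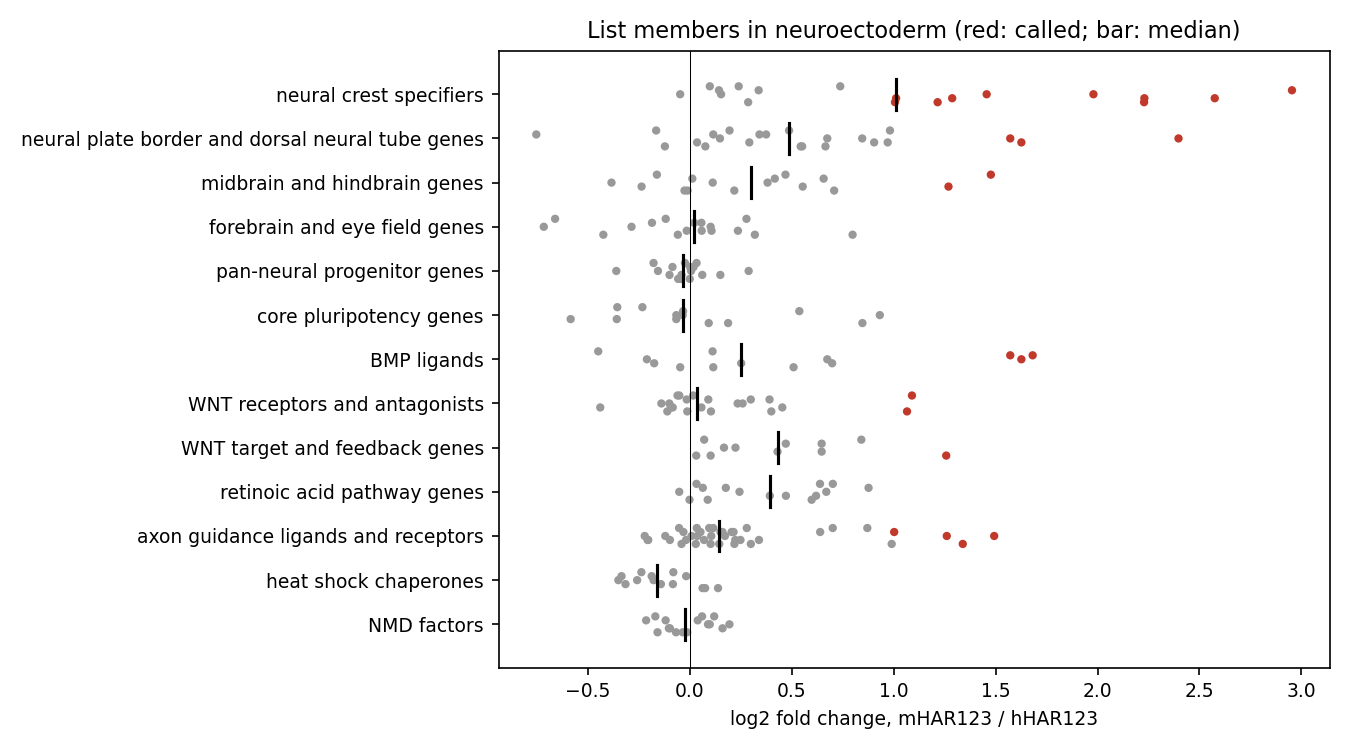
Each point is a tested member of a gene list, placed at its log2 fold change of mHAR123 over hHAR123 in neuroectoderm, with up-regulated members in red and the list median as a black bar. Neural crest specifiers have a median of 1.01, and NMD factors, forebrain genes and pan-neural genes lie around 0.

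Signalling genes that act at the neural plate border moved in part. Of 13 BMP ligands, GDF10 (1.68 ± 0.24, adjusted p = 8.4e-07), BMP4 and BMP5 were up-regulated, although all are low, with BMP4 at 0.999, 0.827 and 0.982 CPM and 2.16, 2.90 and 3.42 CPM. None of 7 BMP antagonists and none of 17 receptors, SMADs and response genes was called. The BMP response genes ID3 and ID1, inhibitors of bHLH factors, were at 0.74 ± 0.05, adjusted p = 8.0e-15 and 0.62 ± 0.08, adjusted p = 4.3e-07. They were the 2 of the 17 members higher at an adjusted p under 0.01, while 2 others were lower, and the list median was 0.07. For WNT, 1 of 18 ligands and R-spondins (WNT4, 1.02 ± 0.16, adjusted p = 4.6e-06), 2 of 22 receptors and antagonists (FZD10, 1.09 ± 0.11, adjusted p = 3.1e-10, and the secreted antagonist DKK1, 1.06 ± 0.16, adjusted p = 2.6e-06) and 1 of 11 targets and feedback genes (APCDD1, 1.26 ± 0.09, adjusted p = 1.9e-13) were up-regulated. The 11 targets had a median of 0.43, each above 0. Among them NKD1 was at 28.7 to 49.99 CPM (0.84, adjusted p = 1.3e-15), SP5 at 0.65, LEF1 at 0.47 and AXIN2 at 0.43. WNT4 and DKK1 fell under the fold threshold when some single libraries were left out.

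No gene of the FGF list (18 tested), the Notch list (19) or the Hedgehog list (10) passed both thresholds, and the medians were -0.03, 0.20 and 0.17. BOC, a Hedgehog co-receptor, was at 221, 238 and 233 CPM and 329.6, 325 and 332 CPM (0.56 ± 0.03, adjusted p = 8.1e-16). The retinoic acid list, with 15 tested, had a median of 0.39 and no called gene; the binding protein CRABP2 was at 50.4, 50.6 and 49.7 CPM and 88.1, 88.8 and 91.8 CPM (0.88 ± 0.04, adjusted p = 7.7e-19).

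Genes of adhesion and guidance included RELN, which encodes the extracellular protein reelin and rose from 3.23, 2.48 and 1.96 CPM to 12.5, 12.5 and 13.5 CPM (2.38 ± 0.12, adjusted p = 2.7e-18), the only called gene of 10 in the reelin pathway. Of 39 axon guidance genes 4 were up-regulated and 0 down-regulated, with a median of 0.14: the repellents SLIT1 (1.26 ± 0.10, adjusted p = 4.5e-13) and SLIT2 (1.002 ± 0.08, adjusted p = 8.7e-13), the semaphorin SEMA3C (1.34 ± 0.16, adjusted p = 3.2e-08) and the netrin receptor UNC5C (1.49 ± 0.14, adjusted p = 1.9e-10). A further 13 had an adjusted p under 0.01 below the fold threshold, all higher, including NRP2 at 39.7 to 70.4 CPM (0.87). SLIT2 lost its call under several alternatives. COL1A2, a chain of type I collagen, was the most abundant up-regulated gene of the lists, at 81.0, 79.8 and 84.8 CPM and 162, 165 and 167 CPM (1.05 ± 0.04, adjusted p = 6.4e-23), and was 1 of 22 collagens. Integrin ITGA8 (1.99 ± 0.15, adjusted p = 1.7e-13) and laminin LAMA4 (1.13 ± 0.13, adjusted p = 1.7e-08) were the called genes among 21 laminins and integrins.

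The largest other increases among genes of at least 1 mean CPM were in KANK4, a regulator of the cortical cytoskeleton (2.47, 2.23 and 1.92 CPM and 13.7, 14.9 and 13.5 CPM, 2.71 ± 0.12, adjusted p = 1.1e-20), TCEAL5 (2.61 ± 0.18, adjusted p = 1.8e-14), TSPYL5 (2.55 ± 0.15, adjusted p = 2.9e-16), TBX15, a T-box factor of mesenchyme (2.12 ± 0.17, adjusted p = 1.1e-12), the protease ADAMTS15 (2.11 ± 0.11, adjusted p = 2.9e-18), PDYN, the precursor of dynorphins (2.09 ± 0.29, adjusted p = 5.9e-07), and the channel gene CALHM2 (2.07 ± 0.20, adjusted p = 1.3e-10).

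Among all 36 lists the only down-regulated member was ACTA1, skeletal muscle actin, at 4.95, 6.12 and 5.72 CPM and 1.92, 2.28 and 2.81 CPM (-1.23 ± 0.15, adjusted p = 5.6e-08), 1 of 10 muscle and contractile genes tested, with a list median of -0.28. ACTA2, TAGLN and ACTC1 were at -0.91, -0.77 and -0.65, and TPM1 at -0.31. Beside this, the 4 muscle markers summed to 5.85 to 7.36 CPM in hHAR123 and 3.10 to 3.37 CPM in mHAR123, and MYH6 and TNNT2 had at most 4 counts in any of these 6 libraries. None of 14 heat shock chaperones was called, with 7 lower and 1 higher at an adjusted p under 0.01, and HSPA1A at -0.32 ± 0.04, adjusted p = 8.0e-09. HSPA6 (-1.77 ± 0.11, adjusted p = 1.3e-15), a strictly inducible HSP70 gene, and its near-identical neighbour HSPA7 (-1.49 ± 0.20, adjusted p = 5.9e-07) fell, but reads of this pair may be divided between the copies. The lists for the ATF4 response (17 tested), glycolysis (21), cholesterol synthesis (20), cell cycle (27) and nonsense-mediated decay (16) held no called gene. Their medians were -0.02, 0.05, 0.14, 0.11 and -0.02. MT1F was up-regulated (1.12 ± 0.20, adjusted p = 5.3e-05), 1 of 3 metallothioneins tested.

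Some losses were in genes that were almost silent in mHAR123. In 16 of the 91 down-regulated genes each mHAR123 library had 3 or fewer counts, and 8 of the 16 had a mean of at least 1 CPM in hHAR123. An uncharacterised gene on chromosome 6, ENSG00000289456, was at 5.803, 6.49 and 6.49 CPM in hHAR123 and had 3 counts in the 3 mHAR123 libraries together. ENSG00000286449 and ENSG00000287460 had 0 counts, which makes them at least 14.3-fold and 12.4-fold lower against a floor of 3 counts per library. CAT (catalase), CTSF (cathepsin F) and CLEC2A also had 0 counts, with at least 4.48-fold, 6.21-fold and 6.70-fold lower levels; they were named after their values were seen. ENSG00000286449 also had 0 counts in the 3 cHAR123 and the 3 HAR123-KO libraries, ENSG00000287460 had 0 in cHAR123 and at most 1 in HAR123-KO, and ENSG00000289456 had at most 7 and 3. REG1A, a secreted lectin-like protein with at most 1 count in a cHAR123 library and 6 in a HAR123-KO library, was at 1.05, 1.57 and 1.62 CPM and 0.0385, 0.0828 and 0.0865 CPM.

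Better covered losses included 3 protein-coding genes. H1-1, a linker histone at chr6:26017032-26017787, was at 3.71, 3.14 and 3.16 CPM and 0.269, 0.124 and 0.130 CPM (-4.15 ± 0.30, adjusted p = 5.2e-14). The zinc finger gene ZNF283 at chr19:43827321-43852017 was at 11.4, 10.5 and 10.6 CPM and 1.12, 1.08 and 0.692 CPM (-3.43 ± 0.15, adjusted p = 1.3e-20), and ZNF300 at chr5:150894392-150904983 at 8.47, 7.65 and 7.94 CPM and 0.654, 0.538 and 0.995 CPM (-3.42 ± 0.17, adjusted p = 1.5e-18). These 3 genes were also low in cHAR123, with 7, 5 and 8 counts for H1-1, 56, 40 and 47 for ZNF283 and 5, 7 and 4 for ZNF300. In HAR123-KO ZNF283 had 64, 47 and 55 counts, against 240, 253 and 249 in hHAR123. The divergent transcript YPEL3-DT (-2.82 ± 0.15, adjusted p = 4.1e-18), at 1.32 ± 0.0988 CPM in cHAR123, 1.02 ± 0.0178 CPM in HAR123-KO and 1.13 ± 0.0436 CPM in mHAR123 (SD, n = 3), and the transporter SLC5A12 (-1.81 ± 0.13, adjusted p = 1.3e-13) fell as well. FAR2P2 (-2.08 ± 0.13, adjusted p = 2.9e-16) and FAR2P3 (-1.66 ± 0.21, adjusted p = 1.3e-07) are copies of one pseudogene family and count as 1 observation. So may 8 unnamed IDs on chromosome 21 and 2 unplaced scaffolds, which were grouped after seeing their near-equal changes of -1.41 to -1.37. Without these 8 IDs 83 genes were down-regulated. FAR2P2 was low in the other edited genotypes too, with 71, 66 and 58 counts in cHAR123 and 43, 52 and 69 in HAR123-KO, against 217, 221 and 223 in hHAR123. The most abundant down-regulated gene was BTF3, a subunit of the nascent polypeptide-associated complex, named here after its values were seen. It was counted at 243, 235 and 238 CPM and 109, 106.4 and 107 CPM (-1.11 ± 0.04, adjusted p = 3.7e-25). ALG10B, a glucosyltransferase of N-glycan assembly, was at 28.9, 27.1 and 29.0 CPM and 9.78, 8.57 and 8.31 CPM (-1.63 ± 0.08, adjusted p = 8.1e-20).

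By position, called genes occurred on each of the 23 chromosomes with at least 100 genes tested, at 0.393% to 1.94% of the genes tested, and the median log2 fold change per chromosome was -0.06 to 0.08. There were 17 runs of neighbouring called genes within 100 kb of each other, holding 36 genes, and in each run the genes moved in one direction. Of these runs 4 consist of the 8 near-equal IDs, which leaves 13 runs with 28 genes. The highest share, on chromosome 21, rests on 5 called genes, 4 of them such IDs. Several of the 13 runs pair a gene with its antisense or divergent transcript, as for FOXD3, FZD10, BTF3 and PCDH10. Others hold near-identical copies, as HSPA6 and HSPA7 do. The genes of such runs may not be separate observations. Around the element itself, 36 genes within 500 kb of SMG6 were tested and 1 was called. SMG6 (chr17:2059839-2303785), an endonuclease of nonsense-mediated decay, was at 149.6, 153 and 145 CPM and 148, 148 and 150 CPM (0.04 ± 0.04, adjusted p = 0.51). HIC1 (chr17:2054154-2063241), a zinc finger repressor that overlaps SMG6 on the opposite strand, was the called gene, at 1.95, 1.16 and 1.20 CPM and 0.462, 0.455 and 0.692 CPM (-1.36 ± 0.31, adjusted p = 9.3e-04). This rests on low counts, and the call was lost without hHAR123 replicate 1 and with DESeq2. The overlap with SMG6 makes its count uncertain. HIC1 was similarly low in the other edited genotypes, with 10, 18 and 8 counts in cHAR123 and 14, 11 and 13 in HAR123-KO. The counts were 12, 11 and 16 in mHAR123 and 41, 28 and 28 in hHAR123. The 36 neighbours ranged from -1.36 to 0.91 with a median of -0.00, and 4 others had an adjusted p under 0.01.

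Against HAR123-KO cells of the same stage, mHAR123 cells differed far more, with 1549 genes (7.33% of 21138 tested) called, 750 higher (3.55%) and 799 lower (3.78%). The 10 neural crest specifiers up-regulated against hHAR123 were each lower than in HAR123-KO. FOXD3 was at 188, 188 and 187 CPM in HAR123-KO (-3.30 ± 0.05, adjusted p = 2.7e-42 for mHAR123 over HAR123-KO). SOX10 had a difference of -2.58 ± 0.03, adjusted p = 3.2e-46, TFAP2B of -3.27 ± 0.03, adjusted p = 5.7e-49 and NGFR, the smallest of the 10, of -1.90 ± 0.03, adjusted p = 1.9e-41. In all, 14 of 19 tested list members were lower and 0 higher. PAX7 (-3.66 ± 0.05, adjusted p = 1.5e-44), RELN (-3.93 ± 0.04, adjusted p = 5.5e-48) and the WNT ligand WNT4 (-3.01 ± 0.08, adjusted p = 5.4e-33) were lower too. Conversely 13 of 18 forebrain and eye field genes were higher in mHAR123 than in HAR123-KO and 0 lower, with a median of 1.72. NR2E1 differed by 4.85 ± 0.15, adjusted p = 3.1e-30, RAX by 3.41 ± 0.21, adjusted p = 1.6e-18 and SOX2 by 1.72 ± 0.03, adjusted p = 2.9e-42, and of 18 pan-neural genes 7 were higher and 1 lower. Other genes at the extremes of this comparison were ZNF717 (7.82 ± 0.18, adjusted p = 3.9e-36), MIR9-1HG (4.75 ± 0.14, adjusted p = 2.9e-31) and LRRC3B (4.04 ± 0.12, adjusted p = 2.1e-31) on the higher side and FIBIN (-5.16 ± 0.34, adjusted p = 8.5e-18), PRSS56 (-4.81 ± 0.15, adjusted p = 4.3e-30) and CPED1 (-3.82 ± 0.18, adjusted p = 1.2e-23) on the lower. Among genes down-regulated against hHAR123, ZNF300 had 0.474, 0.624 and 0.531 CPM there and H1-1 0.258, 0.125 and 0.0817 CPM. Of the 91, 54 could be tested in this comparison, with 13 higher and 8 lower in mHAR123.

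Set beside each other, with the hHAR123 libraries shared by all 3 comparisons, the log2 change of FOXD3 over hHAR123 was 2.95 for mHAR123, 2.40 for cHAR123 and 6.27 for HAR123-KO. For SOX10 these values were 2.23, 1.59 and 4.83, for PAX7 2.40, 2.68 and 6.09, for RELN 2.38, 2.58 and 6.33, and for NR2E1 -0.66, -0.32 and -5.49. Over the up-regulated genes the medians were 1.35 for mHAR123, 1.09 for cHAR123 over 124 genes tested and 3.31 for HAR123-KO over 126. Over the 91 down-regulated genes they were -1.49, -1.29 and -2.15. Both sets were selected by their change in mHAR123, so the mHAR123 medians pass the fold threshold by construction. The medians therefore do not rank mHAR123 against cHAR123. Over all genes tested, 0.522% were higher and 0.456% lower in cHAR123 than in hHAR123 (0.978% in all), and 4.92% were higher and 4.52% lower in HAR123-KO (9.45% in all).

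Compared directly, mHAR123 and cHAR123 neuroectoderm differed in 55 genes, 0.261% of 21108 tested, with 22 higher (0.104%) and 33 lower (0.156%) in mHAR123. Both groups carry an exchanged element, but in separate clones, so the ortholog and the clone cannot be told apart here either. None of 18 neural crest specifiers was called, and the median difference was 0.18. Even so, 8 had an adjusted p under 0.01 on the higher side, including SOX10 (0.64 ± 0.05, adjusted p = 6.9e-15), SNAI2 (0.72 ± 0.10, adjusted p = 9.4e-07), ETS1 (0.57 ± 0.06, adjusted p = 1.4e-09) and FOXD3 (0.55 ± 0.09, adjusted p = 8.3e-06), and 2 on the lower side. WNT4 went the other way (-1.02 ± 0.11, adjusted p = 1.5e-09). Within the 10 muscle and contractile genes 7 had an adjusted p under 0.01 on the lower side, and ACTA2 differed by -0.91 ± 0.09, adjusted p = 3.8e-10. Over all 21108 genes tested, 557 were higher and 329 lower at an adjusted p under 0.01 at any fold.

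Several differences between the exchanged genotypes were close to all-or-none. H4C13, a core histone gene, was at 0.0800, 0.127 and 0.224 CPM in cHAR123 and 37.3, 38.8 and 37.0 CPM in mHAR123, while hHAR123 had 31.2, 33.1 and 35.8 CPM. The long noncoding RNA LINC01515 was at 1.001, 1.39 and 1.48 CPM and 53.4, 47.5 and 48.2 CPM, and LINC01090 at 0.160, 0.0845 and 0 CPM and 7.54, 6.38 and 7.96 CPM. Here mHAR123 stayed near hHAR123 and cHAR123 stood apart. For ALG10B, CCDC169 and BTF3 mHAR123 was below both. For TCEAL5 both differed from hHAR123, mHAR123 upwards (2.61) and cHAR123 downwards (-3.04, adjusted p = 2.5e-06). TCEAL5 on the X chromosome was at 0.999, 1.24 and 0.683 CPM in hHAR123, 0.120, 0.127 and 0.0897 CPM in cHAR123 and 6.39, 5.59 and 5.49 CPM in mHAR123 (5.65 ± 0.27, adjusted p = 5.4e-22 over cHAR123). ALG10B was at 28.1, 30.5 and 27.7 CPM in cHAR123 (-1.67 ± 0.07, adjusted p = 2.7e-23), CCDC169 at 3.20, 5.24 and 2.96 CPM against 1.27, 1.12 and 1.25 CPM (-1.62 ± 0.20, adjusted p = 6.7e-08), and BTF3 at 214, 221 and 217 CPM (-0.99 ± 0.03, adjusted p = 2.3e-30). TCP11X1 (-1.76 ± 0.24, adjusted p = 5.7e-07) and NXF2 (-2.84 ± 0.32, adjusted p = 5.5e-09), which have near-identical copies on the X chromosome, were lower in mHAR123 and are uncertain.

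These differences could be followed into ESCs, where mHAR123 and cHAR123 libraries are separate from those of neuroectoderm; this comparison was chosen after seeing the data. Of the 55 genes called in neuroectoderm 14 (25.5%) were also called in ESCs, 42.4% of the 33 called there (0.158% of 20950 tested, 0.0716% higher and 0.0859% lower), and 14 of the 14 had the same direction. TCEAL5 was at 0.225, 0.258 and 0.196 CPM in cHAR123 ESCs and 9.10, 9.03 and 8.92 CPM in mHAR123 ESCs. H4C13 was at 1.84, 2.10 and 1.27 CPM and 72.1, 69.4 and 69.5 CPM, and LINC01515 at 0.526, 0.258 and 0.783 CPM and 21.5, 20.97 and 21.1 CPM. The libraries labelled mHAR123 at both stages thus share these levels, as do those labelled cHAR123. These values alone do not say which of the labels names the mouse sequence. From single cells taken later, during neural progenitor formation, the paper reports higher BTF3 with hHAR123 than with cHAR123. In neuroectoderm BTF3 was at 243, 235 and 238 CPM in hHAR123. It was at 109, 106.4 and 107 CPM in the columns labelled mHAR123 and 214, 221 and 217 CPM in those labelled cHAR123. Libraries of either label thus lay below hHAR123, with the larger decrease under the label mHAR123. Which label matches the single-cell result was not tested.

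**Figure D4:**
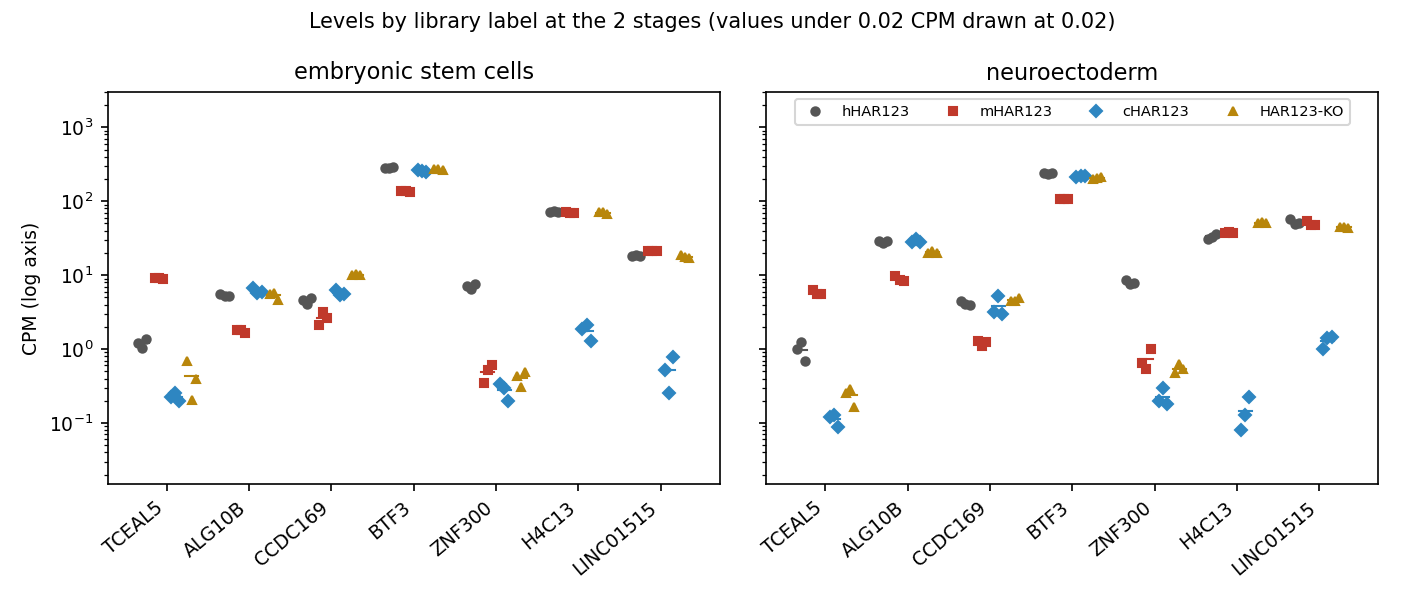
CPM on a log axis of 7 genes in ESCs (left) and neuroectoderm (right), with 1 point per library, a bar at the mean of 3 and values under 0.02 CPM drawn at 0.02. TCEAL5 is highest in mHAR123 and BTF3, ALG10B and CCDC169 lowest, whereas H4C13 and LINC01515 are low in cHAR123 alone, at both stages.

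In ESCs, before differentiation, mHAR123 cells had 259 genes called (1.23% of 21139 tested), 217 up-regulated (1.03%) and 42 down-regulated (0.199%), against hHAR123, in libraries separate from those of neuroectoderm. Of the neuroectoderm genes, 13 up-regulated ones (10.2% of 128, 5.99% of 217) and 19 down-regulated ones (20.9% of 91, 45.2% of 42) were called in the same direction. None of the 15 neural crest specifiers tested in ESCs was called there. TFAP2C and NGFR were at 0.99 ± 0.10, adjusted p = 2.6e-10 and 0.83 ± 0.08, adjusted p = 7.6e-12. FOXD3, which ESCs also express, was at 38.6, 37.4 and 41.4 CPM in hHAR123 ESCs and 33.1, 32.9 and 33.5 CPM in mHAR123 ESCs (-0.28 ± 0.05, adjusted p = 5.0e-06). SOX10 was at 0.31 ± 0.11, adjusted p = 0.034 and ETS1 at -0.04 ± 0.04, adjusted p = 0.48. Up-regulated at both stages were TCEAL5 (2.87 ± 0.13, adjusted p = 6.0e-23 in ESCs), TSPYL5 (2.14 ± 0.09, adjusted p = 1.4e-23), TBX15 (1.41 ± 0.11, adjusted p = 1.5e-14) and CALHM2 (1.36 ± 0.19, adjusted p = 2.8e-07). Down-regulated at both were ZNF300 (-3.89 ± 0.17, adjusted p = 2.2e-23), ZNF283 (-2.60 ± 0.15, adjusted p = 1.3e-18), ALG10B (-1.63 ± 0.13, adjusted p = 7.5e-14), BTF3 (-1.11 ± 0.03, adjusted p = 2.8e-33), FAR2P2 (-3.67 ± 0.12, adjusted p = 3.5e-28) and ENSG00000289456 (-7.28 ± 0.23, adjusted p = 3.5e-28). The dorsal BMP ligand GDF7 fell in ESCs (-4.17 ± 0.30, adjusted p = 1.8e-15) and was at 0.67 ± 0.10, adjusted p = 9.6e-07 in neuroectoderm. CGAS (-3.84 ± 0.32, adjusted p = 2.1e-13), a DNA sensor, and the metallothioneins MT1H (3.19 ± 0.21, adjusted p = 6.4e-17), MT1E (2.64 ± 0.26, adjusted p = 2.6e-11) and MT1G (2.62 ± 0.10, adjusted p = 1.6e-25) changed in ESCs and were too low in neuroectoderm to be tested. GDF7 and CGAS were low in every edited genotype of ESCs. GDF7 had 97, 81 and 74 counts in hHAR123, 7, 3 and 3 in mHAR123, 3, 2 and 11 in cHAR123 and 6, 2 and 9 in HAR123-KO. CGAS had 64, 58 and 65 counts in hHAR123, 3, 6 and 3 in mHAR123, 5, 2 and 2 in cHAR123 and 6, 2 and 1 in HAR123-KO. MT1H, MT1E and MT1G were above hHAR123 in every edited genotype of ESCs, most so in mHAR123. MT1G had 82, 86 and 85 counts in hHAR123 and 599, 407 and 473 in mHAR123. It had 209, 214 and 262 in cHAR123 and 195, 205 and 279 in HAR123-KO.

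The stage difference was tested directly as an interaction over 12 libraries, in which 229 of 23681 genes passed both thresholds (0.967%), 72 with a more positive (0.304%) and 157 with a more negative difference (0.663%) in neuroectoderm. Of the 128 up-regulated genes 49 were among the 72, and of the 91 down-regulated genes 26 were among the 157. The 128 and 91 genes were selected in neuroectoderm libraries that are also among the 12, so these overlaps are in part built in. FOXD3 differed between stages by 3.25 ± 0.14, adjusted p = 1.3e-23, ETS1 by 2.04 ± 0.08, adjusted p = 9.6e-24, SOX10 by 1.94 ± 0.12, adjusted p = 5.8e-17, SNAI2 by 1.76 ± 0.44, adjusted p = 0.0023 and ERBB3 by 1.40 ± 0.07, adjusted p = 3.8e-20. Of the 10 up-regulated specifiers these 5 passed both thresholds. The stage differences of TFAP2C (0.49 ± 0.15, adjusted p = 0.013), NGFR (0.20 ± 0.09, adjusted p = 0.12) and EDNRB (0.80 ± 0.18, adjusted p = 5.9e-04) did not, nor did those of TFAP2A (2.37 ± 1.10, adjusted p = 0.13) and TFAP2B (-1.20 ± 0.92, adjusted p = 0.41), both too low in ESCs to be tested there. The decrease of H1-1 was larger in neuroectoderm by this test (-4.06 ± 0.28, adjusted p = 8.8e-16), as ESCs had 40.3, 40.4 and 37.5 CPM with hHAR123 and 39.98, 38.2 and 38.0 CPM with mHAR123. GDF7 had the most positive difference of the genes named (4.86 ± 0.30, adjusted p = 2.4e-17). ACTA1 and ACTA2 turned direction, with 1.33 ± 0.06, adjusted p = 3.9e-23 and 2.30 ± 0.48, adjusted p = 1.9e-04 in ESCs and stage differences of -2.54 ± 0.16, adjusted p = 2.1e-17 and -3.19 ± 0.44, adjusted p = 2.9e-07. For ACTA2 this rests on low ESC counts of 1, 5 and 4 in hHAR123 and 12, 21 and 15 in mHAR123. Its decrease in neuroectoderm was below the fold threshold. The 4 muscle markers summed to 16.4 to 17.8 CPM in hHAR123 ESCs and 38.0 to 41.7 CPM in mHAR123 ESCs, and the part of these markers in the result was not tested. ALG10B, BTF3 and TCEAL5 gave stage differences of 0.02, 0.02 and -0.23, with adjusted p = 0.94, 0.79 and 0.6. HIC1 was too low in ESCs to be tested there, and its stage difference was 2.71 ± 1.03, adjusted p = 0.056. This value rests on 9, 10 and 5 counts in hHAR123 ESCs and 0, 0 and 1 in mHAR123 ESCs.

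**Figure D5:**
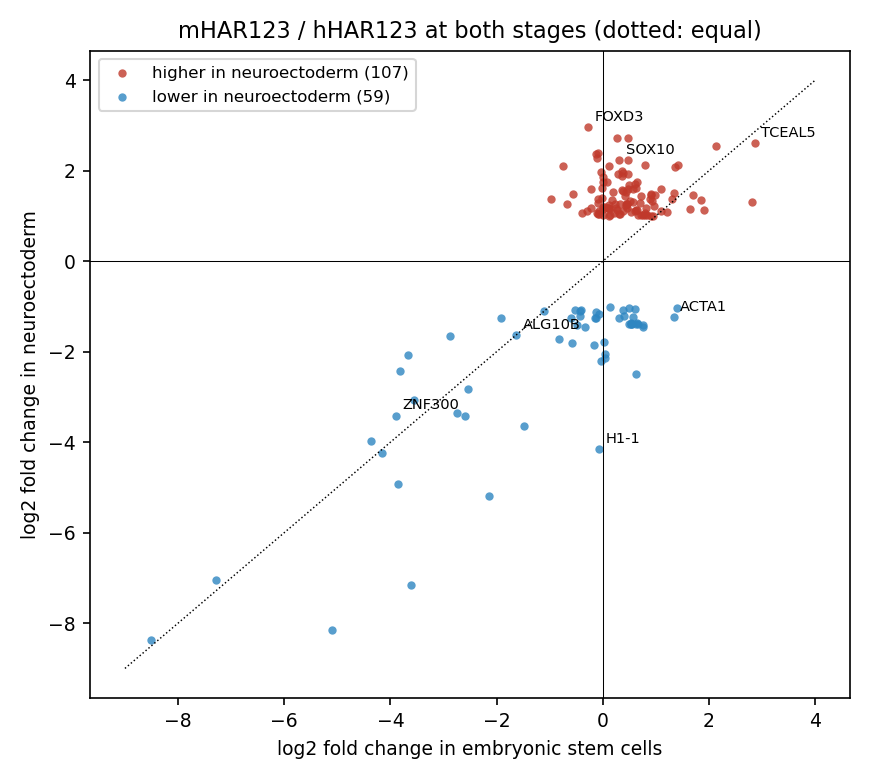
Log2 fold changes of mHAR123 over hHAR123 in ESCs (horizontal) and neuroectoderm (vertical) for the 166 of 219 called neuroectoderm genes that were also tested in ESCs, with equality as a dotted line. Most of the 107 up-regulated genes (red) lie left of the line, FOXD3 and SOX10 near 0 in ESCs, while part of the 59 down-regulated genes (blue) lie along it.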

How the data were processed

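RNA-seq of H9 neuroectoderm and ESCs was used, with groups from the deposited labels. The authors depleted ribosomal RNA, made directional paired-end libraries, aligned reads to GRCh38 with STAR 2.5.2b and deposited raw counts per gene made with featureCounts. The strand setting is not given in the sources used here. The 3 broken lines of the ANK2 entry were left out, leaving 61551 genes. Replicate pairs differed by more than sampling noise (chi-square per degree of freedom 1.40 to 4.97). Counts were fitted per comparison in edgeR 4.0.16 (R 4.3.3) with filterByExpr, TMM and the quasi-likelihood F test. Calls needed an adjusted p below 0.01 with a change of over 1 in either direction on the log2 scale. Standard errors were derived from the fold change and F. CPM is a count scaled to the library total. DESeq2 1.42.0, other scaling, filters, joint and blocked fits and left-out libraries were alternatives. The code was tested on simulated data. Counting error alone sets the floor of 3 counts.

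Members and lists were chosen with earlier results of these data known. Genes named are SMG6 and HIC1, the 15 largest increases and decreases among called genes without overlap at a mean of at least 1 CPM, called list members (or up to 3 largest where none was called), genes at 3 or fewer counts in each library of 1 group and at least 1 CPM in the other, stage markers, and the 5 largest changes each way in every other comparison. BTF3 and those marked so were added with their values known. Some are given by count only, and some are not reported here. Columns of the authors' own comparisons were not used, apart from base means for the label check.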

Additional observations from a re-analysis of the deposited data

Results flagged for a closer look

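The mouse against human difference differed between neuroectoderm and ESCs for 229 genes, by the interaction test over 12 libraries (edgeR quasi-likelihood F test, Benjamini-Hochberg adjustment). Among the genes with the largest changes in neuroectoderm, those with a more positive difference there were FOXD3 (3.25), PDYN (2.87), RELN (2.54), PAX7 (2.51), FOXD3-AS1 (2.41), KANK4 (2.25), ADAMTS15 (2.02), SOX10 (1.94), SNAI2 (1.76), FAR2P2 (1.62) and FAR2P3 (1.23) on the log2 scale. FAR2P2 and FAR2P3 fell at both stages, and less in neuroectoderm. Those with a more negative difference were H1-1 (-4.06), MIR3171HG (-2.07) and SLC5A12 (-1.21). All of these genes were picked by their change in neuroectoderm libraries that are also among the 12. Groups of 3 libraries are too small for a test of single outlying samples.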

How the results depend on the processing

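DESeq2 called 38 genes lower with mHAR123 than with hHAR123 in neuroectoderm instead of 91; 43 of the 91 had no adjusted p there and 10 were given one and missed it. DESeq2 called 7 higher and 7 lower against cHAR123, 92 higher and 22 lower in ESCs, and 98 with a more negative stage difference. Without the filter on low counts 64 genes were lower in ESCs, by construction with more genes tested. At an adjusted p of 0.05, 35 genes were higher than in cHAR123, and 126 and 361 had a more positive and a more negative stage difference. With each replicate left out in turn, the neuroectoderm counts were 114 to 124 higher and 85 to 99 lower against hHAR123, 17 to 23 and 25 to 31 against cHAR123 and 719 to 764 and 772 to 822 against HAR123-KO. Replicates with the same number did not deviate together (correlations 0.03, 0.01 and 0.03), so the numbers do not pair the libraries; a replicate block gave 134 higher and 95 lower. Of 68 named genes called against hHAR123, 60 kept the call under each alternative that gave a value, and 8 lost it at least once: CDH18, CPED1, DKK1, HIC1, NGFR, SLIT2, TFAP2A and WNT4, mostly with a single library left out. No result changed direction.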
